A study of Mus musculus with 18 samples.

Results

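Rnf187, Fcmr, Pycard, Rnase6, Oaf, Snn and Sel1l3 are 7 of the 16545 genes in an FPKM table of mouse splenic B cells with and without Zbtb24. They were chosen by their measured values, because the libraries of the 2 genotypes separated at 24 h or 48 h of LPS, so the genotype differences at those times are given as descriptions with no test. The rule behind that choice used neither the 0 h libraries nor the changes over time. The changes do share the 24 h and 48 h libraries with it. Earlier results of these data were known when the members were chosen, and libraries of different times may share a mouse. The 0 h comparison is therefore not known to be independent of the choice.

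The study stimulated purified splenic B cells in culture with lipopolysaccharide (LPS), a bacterial ligand of TLR4 that drives B cells into division and antibody secretion, and sequenced RNA at 0 h, 24 h and 48 h. Per the study's methods, Zbtb24 B-CKO mice carried Zbtb24 loxp/loxp on C57BL/6 with a Cre that is active in B cells and deletes exon 2, and the littermate controls also carried the Cre. The sample labels name the controls only as CON. Each of the 6 groups held 3 libraries, numbered 1 to 3, and the ages of the mice and the LPS dose of these cultures are not given in the sources used here. Per the study's methods each replicate of splenic B cells came from 1 mouse, and whether libraries of different times shared a mouse is not given in the sources used here.

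ZBTB24 is a zinc finger protein of the BTB family that binds DNA in promoters and activates Cdca7, and loss of the human gene causes an immunodeficiency with unstable pericentromeric DNA. The 7 genes have unlike roles. Fcmr encodes the Fc receptor for IgM on B cells, Pycard encodes ASC, the adaptor that joins inflammasome sensors to caspase-1, and Rnase6 encodes a secreted ribonuclease of the RNase A family with antimicrobial activity. Rnf187 encodes RACO-1, a RING-type ubiquitin ligase that acts as a coactivator of JUN. Snn encodes stannin, a small membrane protein linked to organotin toxicity, Oaf encodes a secreted protein whose function is little known, and Sel1l3 encodes a protein with SEL1 repeats.

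Before the members, the targeted gene was read in every library. Zbtb24 was at 49.6, 49.6 and 37.1 FPKM in controls and 14.3, 10.5 and 12.6 FPKM in B-CKO cells at 0 h. Its means in controls and B-CKO cells were 17.6 and 10.9 FPKM at 24 h and 15.2 and 10.4 FPKM at 48 h. The B-CKO mean was thus 0.275, 0.620 and 0.686 of the control mean at 0 h, 24 h and 48 h. Each value is for the whole gene, which has 7 exons, and only exon 2 is deleted, so the other exons can still count. The ratios therefore do not measure how complete the deletion was. The paper reports efficient deletion in splenic B cells by Q-PCR and western blot. The Zbtb24 libraries of the genotypes did not overlap at any time. At 0 h, same-numbered control and B-CKO libraries deviated together from their group means (correlation across genes 0.854, 0.468 and 0.789 for numbers 1, 2 and 3), so the 0 h differences were also computed without each number. The median SD of a gene on the log2 scale was 0.127 and 0.122 at 0 h and 0.0507 and 0.0489 at 24 h, in controls and B-CKO cells.

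At 24 h the B cell marker Cd79a was at 727 ± 16.9 FPKM in controls and 653 ± 14.8 FPKM in B-CKO cells, and Ms4a1 at 517 ± 32.7 and 472 ± 19.7 FPKM (SD, n = 3), both lower in every B-CKO library with limma adjusted p of 0.118 and 0.3. The markers Cd22 and Blk were also lower in every B-CKO library at 24 h (limma adjusted p = 0.0903 and 0.152), and Cd79b and Pax5 overlapped. Most members were lower at 24 h too. At 48 h Cd79a, Ms4a1, Cd22, Blk, Cd79b and Pax5 each overlapped between genotypes. The part of the levels of these B cell markers in the members' values was not tested. In any library 10 T cell markers summed to at most 14.6 FPKM, 12 myeloid markers to at most 15.4 FPKM and 6 NK cell markers to at most 16.6 FPKM. At 0 h, 7 erythroid markers summed to 15.0 to 37.6 FPKM in controls and 11.7 to 71.1 FPKM in B-CKO cells, highest in B-CKO library 3. In bulk samples, fewer cells of a type and less RNA per cell cannot be told apart.

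ZBTB24 is known to recognise the motif CAGGACCT, whose reverse complement is AGGTCCTG, so the promoter windows of the members were read for either run of letters. RefSeq windows (build GRCm38.p6, 250 bases before to 50 after the start) were at hand for 6 of the 7 members. The motif was in the windows of 2 of these 6 genes, Rnf187 and Oaf, and in 2.20% of the 13151 genes of the table that have a window. The 250 bases before the start are shown for these members and for Cdca7, the known ZBTB24 target, each 5′ to 3′ on the gene's own strand with the motif in capitals.

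Rnf187, chr11:58938907-58939156, minus strand: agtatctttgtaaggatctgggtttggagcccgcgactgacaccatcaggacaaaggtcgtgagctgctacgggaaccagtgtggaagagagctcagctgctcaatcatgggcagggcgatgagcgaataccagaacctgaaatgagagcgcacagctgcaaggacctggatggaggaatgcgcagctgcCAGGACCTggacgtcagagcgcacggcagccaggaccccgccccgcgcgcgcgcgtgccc

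Oaf, chr9:43239817-43240066, minus strand: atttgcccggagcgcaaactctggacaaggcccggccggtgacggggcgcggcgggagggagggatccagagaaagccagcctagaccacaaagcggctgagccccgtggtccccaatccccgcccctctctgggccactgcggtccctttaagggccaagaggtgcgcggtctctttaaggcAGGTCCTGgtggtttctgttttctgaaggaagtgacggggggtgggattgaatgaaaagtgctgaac

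Cdca7, chr2:72475969-72476218, plus strand: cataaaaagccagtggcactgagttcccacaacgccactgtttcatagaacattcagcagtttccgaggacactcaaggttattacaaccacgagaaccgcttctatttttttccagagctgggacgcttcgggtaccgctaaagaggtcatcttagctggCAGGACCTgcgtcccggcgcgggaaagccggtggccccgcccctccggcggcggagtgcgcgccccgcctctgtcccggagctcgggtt

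The motif began 60 bases before the start of Rnf187 and 89 bases before that of Cdca7, on the sense strand. In Oaf it began 67 bases before the start and was read on the antisense strand. Fcmr, Pycard, Rnase6 and Snn had no exact match in their windows, which says only that these letters are not there. These are matches of letters, and binding was not measured. Of the table's genes with the motif and values at 24 h, 34 of 265 (12.8%) were lower and 19 (7.17%) higher in every B-CKO library than in every control library, beside 11.7% and 8.66% of the 12049 genes with any window. At 48 h the shares were 9.40% lower and 3.01% higher with the motif, beside 6.08% and 4.89%.

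Rnf187 (chromosome 11, 58932288 to 58938906, minus strand) was lower in B-CKO cells at each time. At 0 h its FPKM was 96.8, 95.5 and 91.5 in controls 1, 2 and 3 and 61.8, 56.2 and 72.7 in B-CKO 1, 2 and 3. At 24 h it was 114.9, 116.2 and 113.4 in controls and 84.9, 82.0 and 82.3 in B-CKO cells, and at 48 h 119.6, 113.8 and 106.0 against 76.7, 72.3 and 76.4. No B-CKO library reached a control library of the same time. The B-CKO mean was 0.672, 0.723 and 0.664 of the control mean at 0 h, 24 h and 48 h, so the ratio at 0 h, before any LPS, was like that at 48 h. The highest B-CKO group, at 24 h, lay below the lowest control group, at 0 h (83.1 against 94.6 FPKM).

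Pycard (chromosome 7, 127991373 to 127993867, minus strand) was the other well-expressed member that was lower at all 3 times. Its FPKM was 10.8, 8.81 and 7.29 in controls and 6.82, 5.07 and 5.16 in B-CKO cells at 0 h. It was 19.6, 20.5 and 21.0 against 13.5, 14.9 and 14.9 at 24 h, and 33.0, 30.5 and 33.3 against 22.3, 21.3 and 26.7 at 48 h. The groups were apart at each time, narrowly at 0 h, where the lowest control and the highest B-CKO library were 7.29 and 6.82 FPKM. The ratio of means was 0.633, 0.710 and 0.725.

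Fcmr, Snn and Rnase6 differed in the cultures but overlapped between genotypes at 0 h. Fcmr (chromosome 1, 130865777 to 130880790, plus strand) was at 791, 757 and 588 FPKM in controls and 751, 666 and 634 FPKM in B-CKO cells before LPS. At 24 h it was 188, 176 and 175 FPKM in controls against 132, 120 and 117 FPKM in B-CKO cells. At 48 h it was 89.9, 75.0 and 80.5 FPKM against 64.2, 57.3 and 58.8 FPKM. The genotypes mixed at 0 h and were apart at both later times, with ratios of 0.960, 0.683 and 0.735.

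Snn (chromosome 16, 11066298 to 11074985, plus strand) had the same order of groups as Fcmr. It was 264, 268 and 309 FPKM in controls and 250, 206 and 284 FPKM in B-CKO cells at 0 h. At 24 h the values were 102, 87.5 and 91.0 FPKM against 65.9, 55.4 and 64.5 FPKM, and at 48 h 61.7, 58.3 and 62.7 FPKM against 45.2, 43.9 and 47.8 FPKM. The B-CKO libraries at 24 h overlapped with the control libraries at 48 h (means 61.9 and 60.9 FPKM). The ratio of the genotypes was 0.880, 0.664 and 0.749. Snn shares 75 bases at its 3′ end with Txndc11 on the other strand, and the counting is not stated to use strand. Txndc11 was at 19.1 ± 0.177 FPKM in controls and 17.9 ± 0.386 FPKM in B-CKO cells at 24 h (SD, n = 3).

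Rnase6 (chromosome 14, 51123908 to 51132187, plus strand) separated at 24 h only. At 0 h its FPKM was 110, 75.1 and 44.7 in controls 1, 2 and 3 and 115, 65.1 and 57.0 in B-CKO 1, 2 and 3, so the libraries followed their number more than their genotype. At 24 h the values were 29.1, 25.9 and 25.8 in controls and 19.1, 17.9 and 17.7 in B-CKO cells. At 48 h they were 33.2, 29.9 and 36.7 against 25.6, 27.1 and 34.2, and the groups overlapped again. The ratio of means was 1.03, 0.678 and 0.871. The 9 dendritic and plasmacytoid dendritic markers, cells that also express Rnase6, summed to 9.35 to 10.5 FPKM in controls and 11.1 to 13.3 FPKM in B-CKO cells at 24 h. Most of that sum was Flt3, at 6.53 ± 0.206 and 9.03 ± 0.408 FPKM (SD, n = 3), so the sum mostly follows that gene. Siglech, Xcr1, Itgax, Ccr9 and Zbtb46 had means of at most 0.437 FPKM and overlapped between genotypes, and Clec9a and Klk1 were at 0. Cox6a2, at 2.26 ± 0.520 and 2.14 ± 0.843 FPKM, overlapped too. The 12 myeloid markers summed to 4.07 to 5.43 and 3.33 to 4.04 FPKM at 24 h, sums that were narrowly apart and lower in B-CKO cells, as Rnase6 was. Most of it was Itgam, at 2.42 ± 0.362 and 1.95 ± 0.257 FPKM, and Adgre1, at 1.75 ± 0.308 and 1.20 ± 0.345 FPKM (SD, n = 3), each overlapping between genotypes. C1qa and C1qc were at 0 in both genotypes and Csf1r at 0.0100 and 0.0133 FPKM. The part of such cells in the Rnase6 values was not tested.

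Oaf and Sel1l3 were listed near the low end of the table, where 2 decimals and single fragments set the precision. Oaf (chromosome 9, 43221278 to 43239816, minus strand) was the member that was higher in B-CKO cells. Its FPKM was 0.16, 0.24 and 0.25 in controls and 0.50, 0.57 and 0.70 in B-CKO cells at 0 h, 0.52, 0.55 and 0.64 against 1.71, 1.40 and 1.61 at 24 h, and 0.23, 0.37 and 0.17 against 0.97, 0.73 and 0.83 at 48 h. Each B-CKO library was above each control library of its time, and the ratio of means was 2.72, 2.76 and 3.29. Unstimulated B-CKO cells held about the level that LPS-treated controls had at 24 h (0.590 ± 0.101 and 0.570 ± 0.0625 FPKM; SD, n = 3), and these groups overlapped.

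Sel1l3 (chromosome 5, 53107083 to 53213452, minus strand) was at 0.39, 0.35 and 0.27 FPKM in controls and 0.07, 0.11 and 0.07 FPKM in B-CKO cells at 0 h. At 24 h the values were 0.17, 0.10 and 0.08 FPKM against 0.04, 0.07 and 0.04 FPKM, so that 0.01 FPKM, the last printed decimal, parted the groups. At 48 h they were 0.05, 0.04 and 0.06 FPKM in controls and 0.02 and 0.06 FPKM in B-CKO 2 and 3, and B-CKO 1 was listed at 0. The ratio of means was 0.248, 0.429 and 0.533. The wide gap was the one at 0 h, a time that the rule of choice did not use, although earlier results were known.

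**Figure D1:**
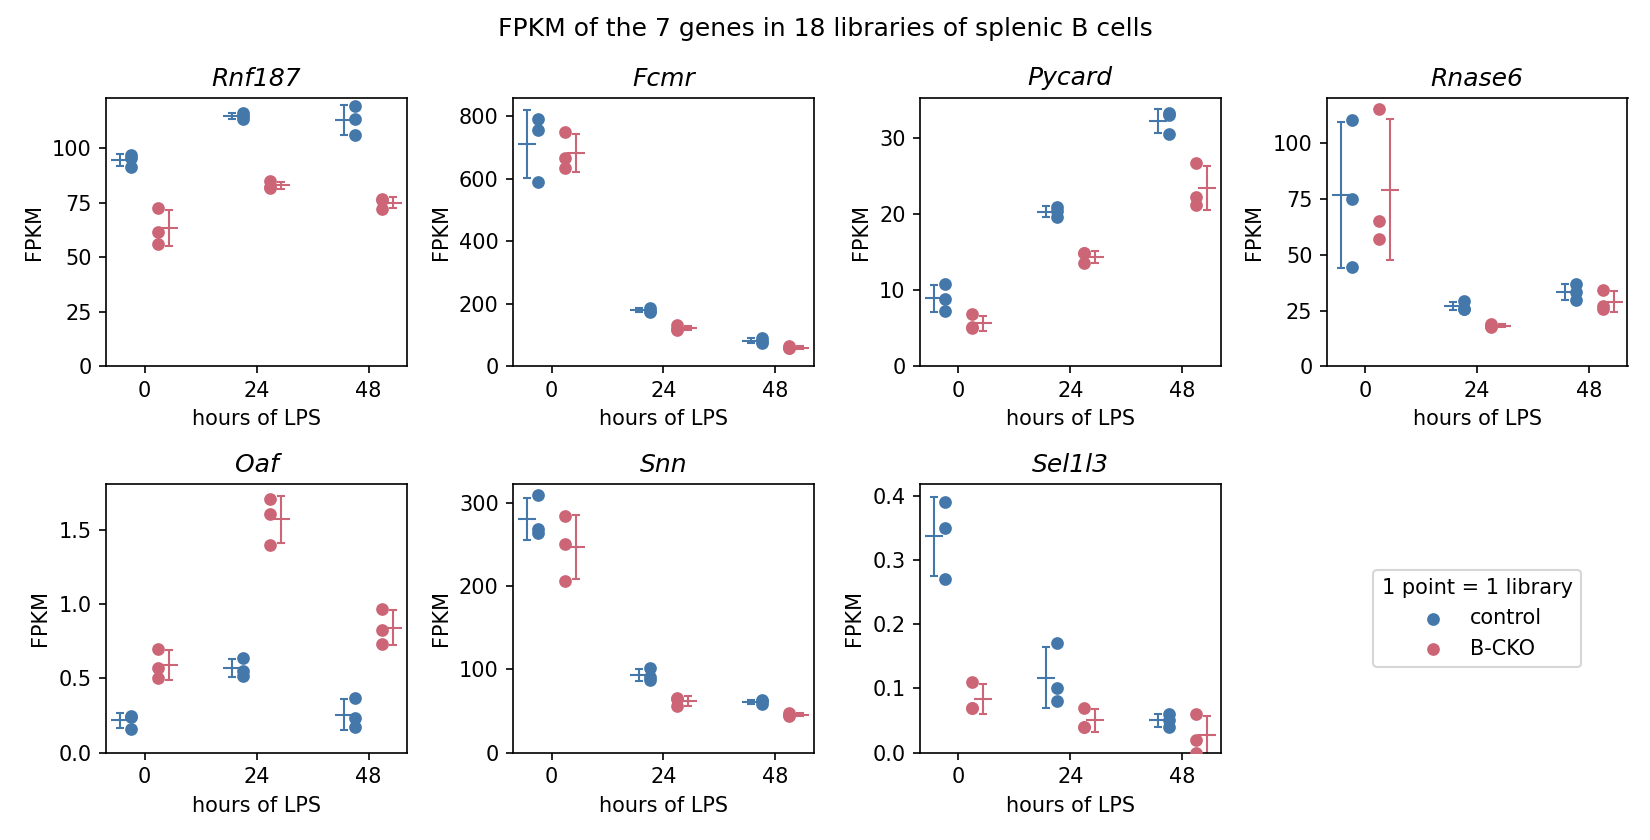
FPKM of each gene (vertical axes, from 0) against hours of LPS, 1 point a library, with the mean and SD of 3 libraries beside the points, in blue for control and red for B-CKO. Rnf187 and Pycard were apart at each time, Fcmr, Snn and Rnase6 overlapped at 0 h, and Oaf was higher in B-CKO cells throughout.

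These separations are read against the table as a whole. At 24 h, 11.7% of 15104 genes were lower and 8.43% higher in every B-CKO library than in every control library. At 48 h the shares were 6.24% lower and 4.89% higher of 15210 genes. The 6 members lower at 24 h and the 1 member higher had been picked for it, as had the 4 lower and 1 higher at 48 h, and nothing is read from these counts. On the log2(FPKM + 1) scale, which understates changes of low genes, the differences at 24 h were -0.46 ± 0.0239 for Rnf187, -0.55 ± 0.0503 for Fcmr, -0.47 ± 0.0479 for Pycard, -0.54 ± 0.0540 for Rnase6 and -0.59 ± 0.0801 for Snn (SE, n = 3 a group). They were 0.71 ± 0.0605 for Oaf and -0.09 ± 0.0328 for Sel1l3. These standard errors do not pair same-numbered libraries.

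The 0 h libraries give the comparison of genotypes outside the rule of choice, although earlier results were known when the members were chosen. There the B-CKO libraries lay below all control libraries for Rnf187, Pycard and Sel1l3 and above them for Oaf. Over the table, 1.94% of 15641 genes were lower and 1.92% higher in this way at 0 h. The difference was -0.57 for Rnf187 (95% interval -0.83 to -0.32), -0.57 for Pycard (-1.01 to -0.14), 0.39 for Oaf (0.24 to 0.53) and -0.30 for Sel1l3 (-0.40 to -0.20) on the log2(FPKM + 1) scale. It was -0.05 for Fcmr (-0.39 to 0.29), -0.19 for Snn (-0.52 to 0.14) and 0.07 for Rnase6 (-0.87 to 1.01), and these 3 intervals hold 0. With the replicate block, in which same-numbered libraries are paired, the interval of Snn was -0.40 to 0.01, and -0.36 to -0.03 when the genes averaging 1 FPKM or more were kept (limma adjusted p = 0.867 and 0.676). Snn was lower in B-CKO cells in each of the 3 pairs. The values of the low genes depend on the scale: with a pseudocount of 0.1 the difference was 1.13 for Oaf and -1.25 for Sel1l3, and after rescaling to TPM 0.62 and -0.55.

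No member passed the limma test at 0 h after Benjamini-Hochberg adjustment over 15641 genes, and of all genes 0 (0%) did. Sel1l3 had an adjusted p of 0.573, Oaf 0.781 and Rnf187 and Pycard 1.00. At an unadjusted limma p under 0.05, 4 of the 7 members and 313 genes of the table passed. The exact two-sided permutation test gave p = 0.1 for each of Rnf187, Pycard, Oaf and Sel1l3, the smallest value that 3 libraries against 3 allow, and 0.8 for Fcmr, 0.9 for Rnase6 and 0.4 for Snn. In a fit that blocked on the replicate number and kept the genes averaging 1 FPKM or more, Rnf187 (adjusted p = 0.0322) and Pycard (adjusted p = 0.0387) passed in limma, among 22 of 9979 genes. Oaf and Sel1l3 are under that mean. Without replicate 1, 2 or 3 the differences were -0.54, -0.48 and -0.70 for Rnf187, -0.56, -0.51 and -0.64 for Pycard, 0.39, 0.41 and 0.36 for Oaf and -0.26, -0.31 and -0.33 for Sel1l3. The 95% interval of Pycard held 0 without replicate 2 (-1.27 to 0.24), and with the replicate block it was -0.81 to -0.22. Without the block, it also held 0 when control library 1 (-0.89 to 0.01) was left out. The same was so without B-CKO library 2 (-1.05 to 0.03) or 3 (-1.06 to 0.03).

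**Figure D2:**
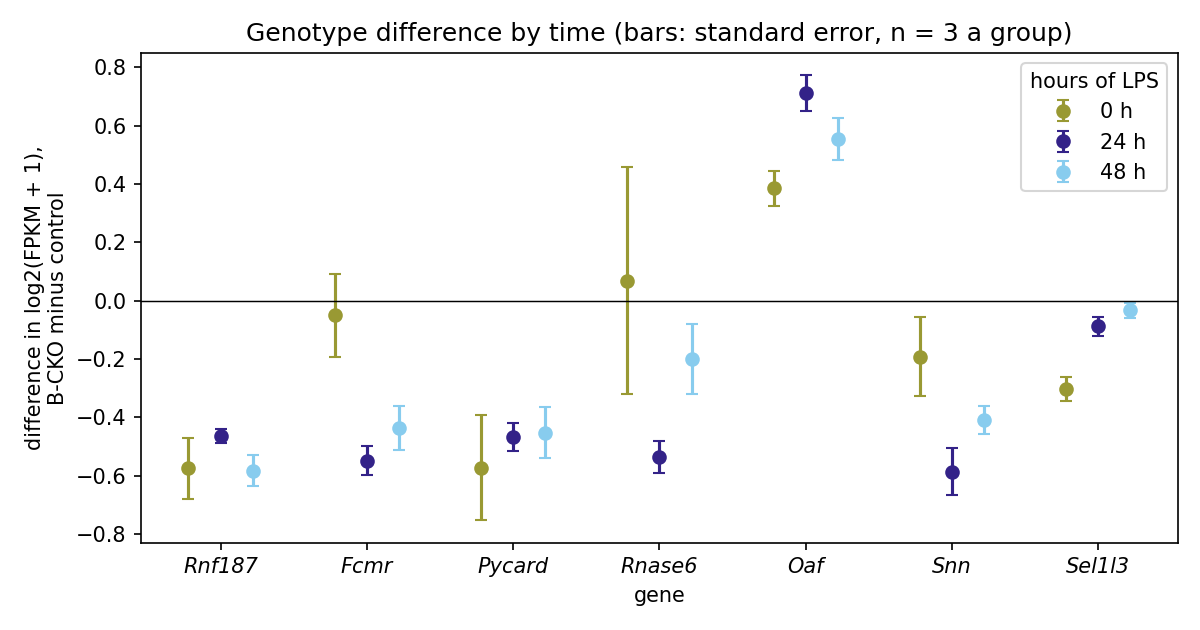
Difference in log2(FPKM + 1), B-CKO minus control, for each gene at 0 h, 24 h and 48 h, with the standard error of 3 libraries a group. Rnf187 and Pycard were near -0.5 at each time, Fcmr moved from -0.05 at 0 h to -0.55 at 24 h, and Oaf was above 0 throughout.

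Over time in culture with LPS the members moved in 2 opposite ways in both genotypes. Fcmr, Snn and Rnase6, the IgM receptor, stannin and the ribonuclease, fell over the first 24 h, while Pycard, Oaf and Rnf187 rose. No library was cultured without LPS, so LPS, time in culture and the state of freshly isolated cells cannot be told apart. The 15 immediate early genes, which mark recent signalling or handling of cells, summed to 3983 to 5863 FPKM in controls and 4762 to 5503 FPKM in B-CKO cells at 0 h, against 350 to 370 and 299 to 325 FPKM at 24 h. In controls, 3 members rose and 4 fell from 0 h to 24 h by limma at an adjusted p under 0.05, beside 26.7% of 15531 genes that rose and 30.7% that fell. In B-CKO cells 3 rose and 3 fell, beside 27.5% and 32.3% of 15551 genes. Shares this large leave a called member little apart from other genes, so the sizes are given.

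Among the 7, Fcmr changed most over the first 24 h. It fell by 1.97 on the log2(FPKM + 1) scale in controls (95% interval -2.26 to -1.68, limma adjusted p = 3.31e-05) and by 2.47 in B-CKO cells (-2.67 to -2.26, adjusted p = 3.78e-06). From 24 h to 48 h it fell again, by 1.13 in controls (adjusted p = 5.78e-05) and by 1.02 in B-CKO cells (adjusted p = 3.26e-05). All 3 libraries of each genotype were lower at each later time.

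Snn fell by 1.58 in controls (adjusted p = 2.52e-05) and by 1.97 in B-CKO cells (adjusted p = 3.36e-05) over the first 24 h. It fell by 0.61 and 0.43 over the next (adjusted p = 0.000318 and 0.0026), and the later fall in B-CKO cells lost its call without replicate 1 (limma adjusted p = 0.0574). Rnase6 fell by 1.39 in controls (adjusted p = 0.00837) and by 1.99 in B-CKO cells (adjusted p = 0.000601), then rose by 0.29 (adjusted p = 0.0238) and 0.63 (adjusted p = 0.0025), in limma. The first fall of Rnase6 in controls lost its call without replicate 2 (limma adjusted p = 0.109). The later rise of Rnase6 in controls lost its call without control library 2 or 3 of 24 h or 1 or 3 of 48 h (limma adjusted p from 0.0608 to 0.0848), and without replicate 1 or 3 (0.0805 and 0.171). Whether these changes differ between genotypes was not tested, since that difference shares the contrast that chose the genes.

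Pycard rose by 1.11 in controls (adjusted p = 0.000611) and 1.22 in B-CKO cells (adjusted p = 0.000193) from 0 h to 24 h. It rose again by 0.64 (adjusted p = 0.000103) and 0.66 (adjusted p = 0.001) from 24 h to 48 h. Its level at 48 h was 32.3 ± 1.55 FPKM in controls and 23.4 ± 2.90 FPKM in B-CKO cells, against 8.97 ± 1.77 and 5.68 ± 0.985 FPKM at 0 h (SD, n = 3). Pycard was the member whose 6 groups were each apart from the next in order, and at each time the control group was the higher.

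Oaf rose and then fell. It rose by 0.37 in controls (adjusted p = 0.000754) and 0.69 in B-CKO cells (adjusted p = 0.000329) on the log2(FPKM + 1) scale, and fell by 0.32 and 0.48 after 24 h (adjusted p = 0.0057 and 0.00185). The fall in controls lost its call without replicate 1 or 3 (limma adjusted p = 0.0621 and 0.0615). Rnf187 rose by 0.28 (adjusted p = 0.00255) and 0.39 (adjusted p = 0.0119), but after rescaling each library to TPM neither rise passed the limma test (0.11, adjusted p = 0.0702, and 0.23, adjusted p = 0.0633). The rise in B-CKO cells also lost its call without replicate 1 or 2 (limma adjusted p = 0.102 and 0.0798). The FPKM of a library summed to 453150 to 472676 at 0 h and to 515196 to 526457 at 24 h. After 24 h Rnf187 fell by 0.14 in B-CKO cells (adjusted p = 0.0152) and its change in controls was -0.02 (95% interval -0.13 to 0.09). The fall in B-CKO cells lost its call with median-ratio scaling (adjusted p = 0.0919) and without library 1 of 24 h (adjusted p = 0.0603), and without replicate 1, 2 or 3 (adjusted p from 0.0566 to 0.104). Sel1l3 fell by 0.26 in controls (adjusted p = 0.00356, or 0.0664 without replicate 2) and its change in B-CKO cells, which began near 0, was -0.04 (-0.10 to 0.01). From 24 h to 48 h its change in controls was -0.09 (adjusted p = 0.063, or 0.0416 without library 3 of 24 h) and in B-CKO cells -0.03 (adjusted p = 0.37).

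From 24 h to 48 h, 2 members rose and 3 fell in controls, beside 20.1% and 24.8% of 15178 genes. In B-CKO cells 2 rose and 4 fell, beside 21.7% and 24% of 15253 genes.

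**Figure D3:**
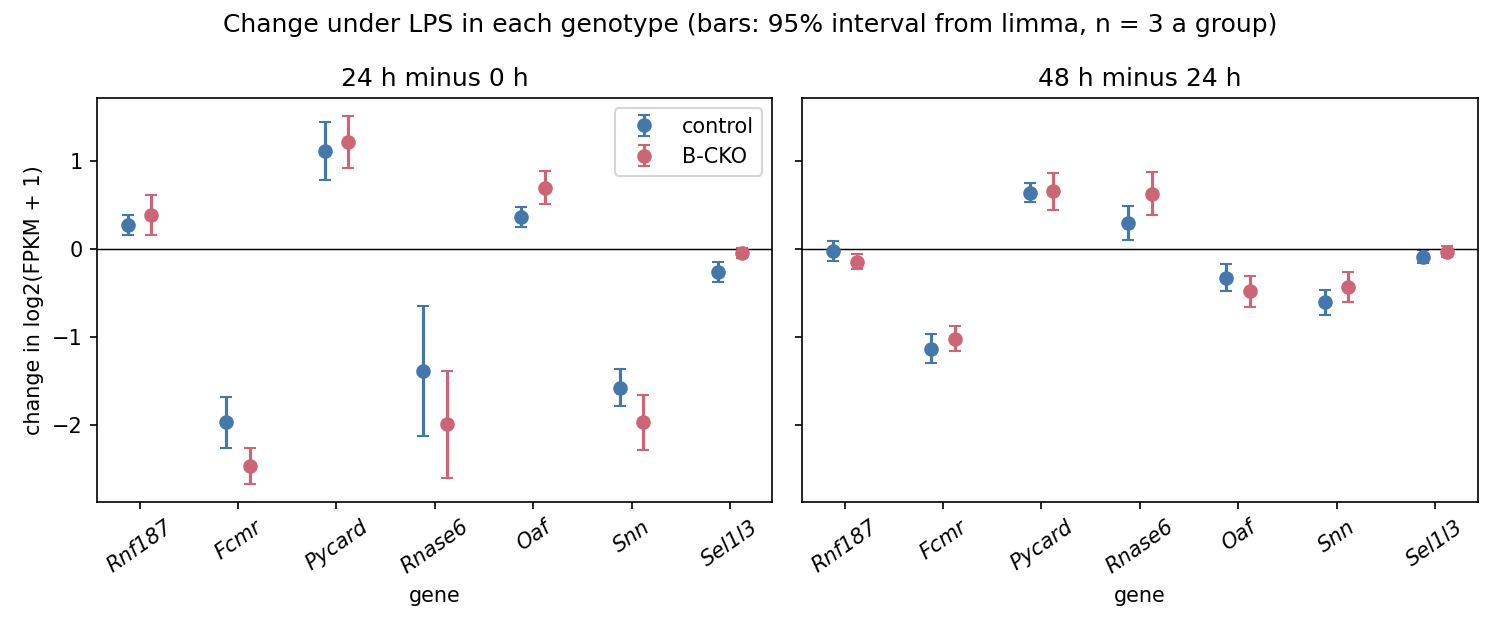
Change in log2(FPKM + 1) from 0 h to 24 h (left) and from 24 h to 48 h (right) for each gene, in control (blue) and B-CKO (red) cells, with the 95% interval from limma. Fcmr, Snn and Rnase6 fell by more than 1 in both genotypes by 24 h, and Pycard rose in both panels.

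Genes that share a role with a member were read from lists, by limma and by whether the genotypes overlapped. At 24 h, limma at an adjusted p under 0.05 called 0.0993% of 15104 genes, at 48 h 0.046% of 15210 genes. Of all these genes, 11.7% were lower and 8.43% higher in every B-CKO library than in every control library at 24 h. At 48 h these shares were 6.24% and 4.89%. Of 19 other inflammasome genes, 0 passed at 24 h, 2 were lower in every B-CKO library and the list's median difference was -0.009 on the log2(FPKM + 1) scale, beside -0.0046 over all genes. Casp1, the caspase that ASC recruits, was at 32.5 ± 1.35 FPKM in controls and 30.01 ± 2.39 FPKM in B-CKO cells (SD, n = 3; limma adjusted p = 0.409). Gsdmd, the pore former cut by caspase-1, was at 16.3 ± 1.37 and 14.2 ± 0.272 FPKM (adjusted p = 0.198), and Nlrp3 was near 0 in both.

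Of 16 genes for Fc receptors and IgM carriage, 0 passed in limma at 24 h, 6 were lower in every B-CKO library and the median was -0.14. Fcrla, a Fc receptor-like protein of B cells, was at 90.2 ± 8.37 FPKM in controls and 65.0 ± 3.92 FPKM in B-CKO cells (SD, n = 3; limma adjusted p = 0.0724). Fcamr, the receptor for IgA and IgM, was at 1.61 ± 0.256 and 0.823 ± 0.147 FPKM (adjusted p = 0.0898). Pigr, which lies between Fcamr and Fcmr, overlapped at 1.05 ± 0.127 and 0.897 ± 0.225 FPKM (limma adjusted p = 0.61). Fcgr2b, the inhibitory IgG receptor, overlapped at 202 ± 13.4 and 185 ± 9.28 FPKM (adjusted p = 0.353). At 48 h, 0 of the 16 were apart in either direction.

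Among 17 genes of JUN coactivation and turnover, 0 passed at 24 h in limma, 3 were lower and 1 higher in every B-CKO library, and the median was -0.02. Jun was at 14.0 ± 0.869 and 13.8 ± 0.938 FPKM (SD, n = 3; limma adjusted p = 0.896) and Junb at 67.7 ± 2.74 and 60.1 ± 2.33 FPKM (adjusted p = 0.132). Of the 9 tested genes of the RNase A family and its inhibitor, 0 passed and 0 were apart at 24 h, with a median of -0.02. The inhibitor Rnh1 was at 61.8 ± 1.19 and 60.0 ± 0.780 FPKM (adjusted p = 0.460). Of 19 genes with SEL1 repeats or of ER-associated degradation, 0 passed in limma, 6 were lower and 1 higher in every B-CKO library, with a median of -0.04. Herpud1, an ER stress-induced partner of the degradation complex, was at 56.4 ± 1.99 and 51.1 ± 0.744 FPKM (adjusted p = 0.122).

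Of the 15 immediate early genes, 7 were lower in every B-CKO library at 24 h and 1 passed in limma, the phosphatase Dusp2, at 48.3 ± 0.882 FPKM in controls and 40.0 ± 0.677 FPKM in B-CKO cells (SD, n = 3; adjusted p = 0.0389). The median was -0.22 at 24 h and -0.11 at 48 h, where 5 were lower and 1 (Atf3) was higher. Over the 12 marker lists, 12 of 75 genes were lower and 2 higher at 24 h. Of 7 marginal zone B cell markers, 3 (Cd1d1, S1pr3 and Dtx1) were lower in every B-CKO library at 24 h, and the list summed to 82.0 to 94.7 FPKM in controls and 72.1 to 79.6 FPKM in B-CKO cells. At 48 h, 2 (S1pr3 and Dtx1) were lower and Cr2 was higher, with sums of 85.9 to 90.9 and 73.3 to 82.5 FPKM. Of 5 follicular B cell markers, 2 (Klf2 and S1pr1) were lower at 24 h, with sums of 305 to 339 and 264 to 285 FPKM, and 0 at 48 h. By limma 0 of the marginal zone and follicular markers passed at either time. Their part in the members' values was not tested.

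The nearest protein-coding genes, 2 on each side of each member in RefSeq, overlapped between genotypes in 22 of 28 cases at 24 h. Of the others, 2, Fcamr and Txndc11, were lower in every B-CKO library, none was higher and 4 were at 0 in the 24 h libraries. Of the 24 tested, 0 passed in limma and the median difference was -0.03, with a range from -0.52 to 0.07. At 48 h, Itgam near Pycard was lower, and Trim72 near Pycard and Anapc4 near Sel1l3 were higher.

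**Figure D4:**
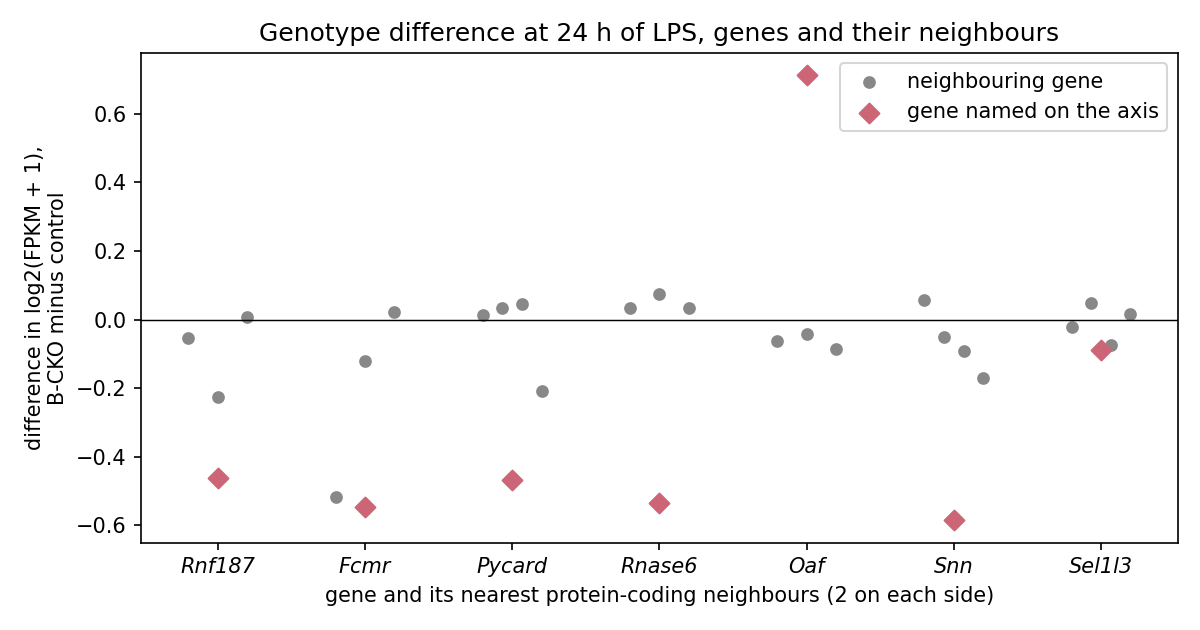
Difference in log2(FPKM + 1) at 24 h, B-CKO minus control, for each member (red diamond) and the neighbouring genes with values (grey points). Fcamr was at -0.52 and Fcmr at -0.55, while Pigr, which lies between them, was at -0.12. The next lowest neighbour after Fcamr, H2bu2 beside Rnf187, was at -0.23.

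For each member the 3 genes most alike over the 18 libraries were found by the root mean square difference of centred log2(FPKM + 1) values, among genes averaging 1 FPKM or more. Rnf187 was nearest to Cdc40, a splicing factor (0.154), which was at 19.1, 21.2 and 19.9 FPKM in controls and 11.3, 13.0 and 12.5 FPKM in B-CKO cells at 0 h, 24 h and 48 h, and then to Car2 (0.188) and Adora2a (0.190). Snn was nearest to Ski (0.164), Plcb2 (0.171) and Ptprj (0.185), and Rnase6 to Lbh (0.174), Lta (0.180) and Gpsm3 (0.187). Fcmr was nearest to Nfkbid, an IkB protein (0.270), Parp8 (0.278) and Marchf1 (0.306). Nfkbid and Parp8 overlapped between genotypes at all 3 times, so they shared the fall of Fcmr over time and not its genotype difference. Marchf1 was lower in every B-CKO library at 24 h, at means of 9.55 FPKM in controls and 8.06 FPKM in B-CKO cells. It overlapped at 0 h and 48 h. Pycard was nearest to Tmem107 (0.248), Pdcd1 (0.250) and Cmc2 (0.262), of which Pdcd1, the inhibitory receptor PD-1, was also lower in B-CKO libraries at each time. Oaf was nearest to Orc4 (0.251), Ddx60 (0.254) and Supt3 (0.262). Sel1l3, almost flat on this scale (0.133 around its own mean), was nearest to Atg4b (0.0929), Vav1 (0.0949) and Cyb5d2 (0.0955), which its low values make uninformative.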

How the data were processed

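RNA of purified splenic B cells was measured by RNA-seq in 18 libraries. The authors deposited FPKM per gene, with 2 decimals. Per the labels the processing used BWA, Bowtie2 and RSEM on mm10, and the methods name bowtie2, Cufflinks and RSEM. The labels name an MGI2000 instrument and the methods a HiSeq or Novaseq. No counts were used, so fragments per value are unknown. Relative depth was estimated from the steps between low values at 4 settings, tried in turn with the values in view and earlier results known, and the estimate depended on the setting. With 14 genes (57.5% of values within 0.1 of a whole fragment) it was 0.967 to 1.22 at 0 h and 0.821 to 1.21 later, and with 41 genes (49.5%) 0.867 to 1.04 and 0.801 to 1.16. With smaller steps and a tolerance of 0.15 it was 0.874 to 0.92 and 1.02 to 1.08 with 113 genes (71.5%), and 0.878 to 0.924 and 1.00 to 1.06 with 167 genes (86.3%). No depth difference is therefore taken as measured, and no result rests on these estimates.

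Genes above 0 FPKM in any compared library were tested on log2(FPKM + 1) with limma 3.58.1 in R 4.3.3, lmFit and eBayes with trend, within the 6 libraries compared, with Benjamini-Hochberg adjustment over all genes tested and a threshold of 0.05. The test was tried on simulated data. At 24 h and 48 h members got no genotype test. Promoter windows came from RefSeq GRCm38.p6, and 16512 of 16545 gene IDs matched RefSeq. Genes named were the members, up to 4 per list, 2 neighbours on each side and 3 most alike genes. Members and lists were chosen with earlier results of these data known. Numbers were taken to pair libraries at 0 h and, in B-CKO cells, between 24 h and 48 h (correlations of 0.126, 0.183 and 0.117). Same-numbered control and B-CKO libraries also correlated at 24 h (0.103, 0.200 and 0.091, and other numbers at most 0.008). The main fits did not pair libraries. Alternatives were another pseudocount, filter, scaling, block, a single fit of all libraries and leaving libraries out. Results that need a withheld item are not reported here.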

Additional observations from a re-analysis of the deposited data

How the results depend on the processing

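Low values and 3 libraries a group limit these results, and with FPKM alone no limit of detection was computed. At 0 h, 0 members passed in limma, 2 with the replicate block and a mean of at least 1 FPKM (Rnf187 and Pycard) and 3 (Rnf187, Oaf and Sel1l3) in a single fit of 18 libraries, where the smaller spread at 24 h and 48 h enters the 0 h test. Of all genes, 0 passed at 0 h, 2 with the filter alone, 22 with the block and the filter and 23 in the single fit. The replicate block alone left 0 members called at 0 h, where the numbers pair the libraries, and changed no call of a member in the 4 comparisons over time.

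Leaving out libraries, some of these settings chosen after seeing the data, moved the 0 h difference of Fcmr between -0.182 and 0.0315 and that of Rnase6 between -0.268 and 0.373, across 0, and that of Snn between -0.299 and -0.0692, the latter without B-CKO library 2. With the block and without replicate 2, Fcmr was at 0.0165, and without replicate 3 Rnase6 was at -0.0684. In controls from 24 h to 48 h, Rnf187 was at 0.0173 with median-ratio scaling and from -0.0636 to 0.0225 with libraries left out, and the members called went from 3 to 5, 3 without replicate 1 or 3, where Rnase6 and Oaf lost their calls and all genes called went from 6820 to 4992 or 4496. In the single fit the changes of Rnase6 (both genotypes) and Rnf187 (B-CKO) from 24 h to 48 h also lost their calls. Leaving out both libraries of a number also ended calls in 3 comparisons. Members called in controls from 0 h to 24 h went from 7 to 5 without replicate 2 (Rnase6 and Sel1l3), and all genes called from 8915 to 6391. In B-CKO cells they went from 6 to 5 from 0 h to 24 h without replicate 1 or 2 (Rnf187; all genes from 9306 to 8629 or 7397), and from 6 to 4 from 24 h to 48 h without replicate 1 (Rnf187 and Snn; all genes from 6964 to 4148). The cause was not tested.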
